A study of Drosophila melanogaster with 4 samples.

Results

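Transcripts of the DNA replication machinery were examined in poly(A) RNA from testes of *Drosophila melanogaster* with a germline knockdown of Caf40 and compared with testes of *bam* mutants, with 2 libraries per genotype. The 37 genes were listed by function: the MCM helicase, the origin recognition complex (ORC), licensing factors, the GINS complex with Cdc45 and Mcm10, the PCNA clamp with its loader, DNA polymerases, the single-strand binding protein RPA, ribonucleotide reductase and enzymes of Okazaki fragment processing. The rule for the list names no measured value, but the list was chosen with earlier results of these data known. Of the 37, 34 were found among the 17559 gene IDs of the count tables. *Mcm3*, *Orc1* and *RPA2* were not matched and were not analysed here. The gene listed as *lat*, which encodes the ORC subunit Orc3, had no count in any library, but its 3315 exonic bases all overlap another gene, *CG34315*, on the same strand, so nothing is said of its level. The remaining 33 genes were tested.

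The knockdown males had the genotype Caf40RNAi(BL67987)/nosGAL4. A hairpin against Caf40, which belongs to the CCR4-NOT complex that shortens poly(A) tails and is bound by Bam, was expressed under the *nanos* driver, which acts in germline stem cells and early spermatogonia, and the study's methods describe driver strains that also carried UAS-Dicer2. These flies were kept at 25 °C for 3 days and then at 29 °C, and males were dissected 0 to 2 days after eclosion. The mutant males were bam1/bam86, with a balancer (CyO) named in the study's methods, and lacked Bam, the protein that ends spermatogonial proliferation. They grew at 22 °C until pupae of middle and late stages had formed. They then received a 30 min heat shock at 37 °C, although they carried no heat-shock promoter, and were dissected 48 h later after culture at 25 °C. Each library came from 150 pairs of testes dissected in batches of 50. According to the study's methods the seminal vesicle was included. Those methods also give an age of 0 to 2 days for the males of both genotypes together, whereas the labels give an age for the knockdown only. Both genotypes accumulate overproliferating early germ cells. Genotype cannot be told apart from temperature, heat shock or strain, because these differed between the groups in the same way. Nothing states that replicates came from separate cultures, so p-values measure only the spread between these samples.

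Before S phase, ORC, Cdc6 and Cdt1 load the MCM helicase onto origins, and geminin binds Cdt1 to prevent a second round of loading. Cdc45 and GINS then join MCM to form the active helicase, polymerase alpha-primase lays down primers, the clamp loader places PCNA on them, and polymerases delta and epsilon extend them. RPA covers the single strands, ribonucleotide reductase supplies deoxynucleotides, and Fen1 and DNA ligase I join the Okazaki fragments. In the testis, spermatogonia pass through repeated mitotic S phases and each cyst completes a final premeiotic S phase before meiosis.

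The knockdown libraries held 30411385 and 26984758 gene counts, against 118209171 and 95125694 in the *bam* mutant libraries. Levels are given in CPM, which are counts set to a common library total after scaling with TMM factors, the trimmed means of log ratios between libraries. The limit that a count of 0 allows, 3 counts, was 0.0997 and 0.103 CPM in the knockdown and 0.0265 and 0.0322 CPM in the *bam* mutant. The libraries carried no molecular identifiers, so such limits cover counting error only. The Caf40 transcript, annotated as *Rcd-1*, had 13.5 and 16.2 CPM in the knockdown and 204 and 207 CPM in the *bam* mutant, a log2 fold change of −3.80 ± 0.09 (SE). The *bam* transcript, which the mutant alleles affect, had 267 and 249 CPM in the knockdown and 20.8 and 20.7 CPM in the *bam* mutant. Lists of marker genes also differed between the genotypes. Summed germline markers came to 3978 and 3565 CPM in the knockdown and 2297 and 2253 CPM in the *bam* mutant, and all 13 tested were called higher. Summed markers of somatic cyst and hub cells came to 364 and 326 CPM in the knockdown and 526 and 536 CPM in the *bam* mutant, with 7 of 10 called lower and 1 higher. Muscle markers summed to 1011 and 1144 CPM in the knockdown and 1781 and 1957 CPM in the *bam* mutant, with 7 of 9 called lower. Spermatocyte markers summed to 367 and 340 CPM in the knockdown and 299 and 290 CPM in the *bam* mutant, with 6 of 12 called higher and 1 lower. Spermatid markers summed to 4.22 and 121 CPM in the knockdown and 8.77 and 10.2 CPM in the *bam* mutant, with 1 of 10 called higher. Accessory gland markers summed to 430 and 49.5 CPM in the knockdown and 10.3 and 3.24 CPM in the *bam* mutant, and all 12 tested were called higher, so that the knockdown libraries differed from each other in these last lists. These calls are from the TMM scaling, where 30.7% of all genes tested were called higher and 33% lower. No matched marker was at 0 in both libraries of a genotype. In bulk RNA, a different number of cells of a type and a different amount of RNA per cell cannot be told apart.

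Most replication transcripts took a larger share of the RNA in the knockdown testes than in the *bam* mutant testes under TMM scaling, while most were lower relative to germline markers. With TMM scaling, 26 of the 33 tested were called higher and 1 lower by edgeR's quasi-likelihood test at an adjusted p under 0.05, and 6 were not called. Over all 10854 genes tested, 30.7% were called higher, 33% lower and 63.7% in either direction. The median log2 fold change of the 33 genes was 0.38, which is 1.30-fold, beside 0.03 for all genes, and single genes ranged between −0.22 and 0.87. None reached a log2 value of 1 in either direction. The libraries of the 2 genotypes did not overlap for 29 of the 33 genes, 28 of them with the knockdown higher, against 41.4% of all genes with the knockdown higher and 42% with it lower. Without *bam* mutant replicate 2 the calls lost were *Fen1*, *Mcm10*, *Mcm5*, *Orc4*, *Prim1*, *Prim2*, *Psf3*, *RfC4*, *RnrL*, *Sld5*, *dup* and *geminin*. Without *bam* mutant replicate 1 they were *Mcm5*, *Orc4*, *Prim1*, *Prim2*, *Sld5* and *dup*, and without knockdown replicate 1 *Mcm5*, *Prim2* and *dup*. Without knockdown replicate 2 no call was lost and *PolA2* was added. Calls over all genes also became fewer without either *bam* mutant library, so those losses were not confined to the replication genes. Without knockdown replicate 1, by contrast, calls over all genes became more numerous while those replication calls were lost. The median of the 33 genes was 0.24 without *bam* mutant replicate 2 and 0.32 without replicate 1, beside −0.00082 and 0.016 for all genes. It was 0.26 without knockdown replicate 1 and 0.45 without replicate 2, beside −0.018 and −0.035 for all genes. With all genes of at least 1 count kept, 19 were called higher and 3 lower, beside 17.2% and 27.8% of all genes, with *Mcm10*, *Mcm5*, *Orc4*, *Prim2*, *RfC4*, *dup* and *geminin* lost and *Cdc6* and *Orc2* called lower.

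**Figure D1:**
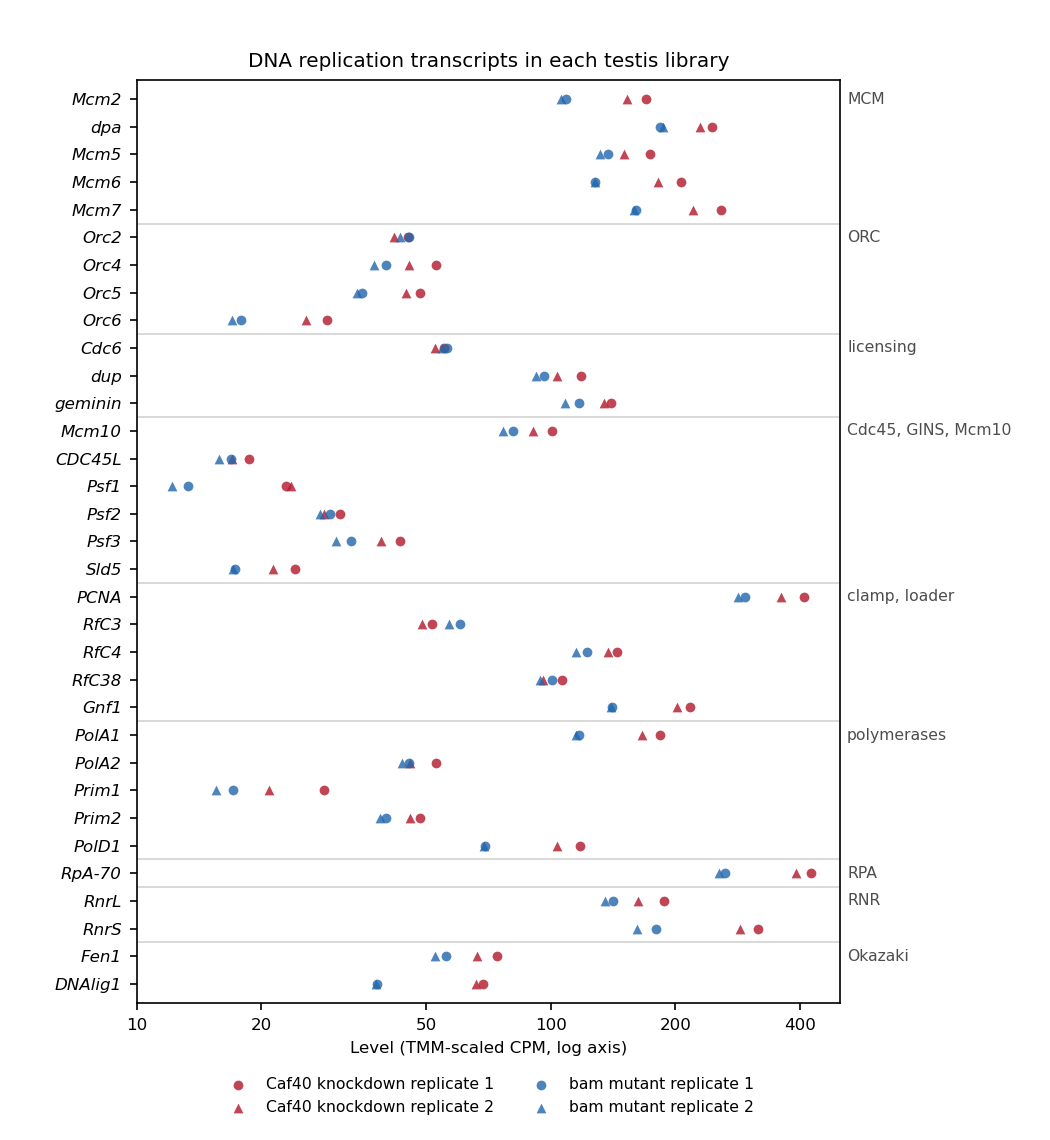
Level of each of the 33 replication transcripts tested, in TMM-scaled CPM on a log axis, with 1 point per library (red, Caf40 knockdown; blue, *bam* mutant; circle, replicate 1; triangle, replicate 2) and genes grouped by role. Under TMM scaling the knockdown points lie right of the *bam* mutant points for 28 genes and left of them for *RfC3*; relative to germline markers most genes were lower in the knockdown.

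The direction of these changes depended on what the libraries were scaled to. When the libraries were scaled to the summed counts of the germline markers, the median of all genes moved by −0.73, none of the 33 replication genes was called higher and 26 were called lower, with a median log2 fold change of −0.35. That is 78.8% of the 33 called lower, beside 68% of all genes called lower and 5.83% called higher in the same fit. In this edgeR fit 0 were higher also at an unadjusted p under 0.05, and no other tool was run with that scaling. A change of scaling factor shifts every gene by nearly the same amount, so the distance of 0.34 between the median of the replication genes and that of all genes, and the 30 of 33 genes above the median of all genes, are set by construction to be alike under each scaling and are 1 observation. As a share of all gene counts, which involves no scaling factor, the replication genes took 0.417% and 0.409% in the knockdown libraries and 0.288% and 0.283% in the *bam* mutant libraries. Their summed counts were 1.06 and 1.07 times those of the germline markers in the knockdown and 1.31 and 1.28 times in the *bam* mutant. Relative to the markers of somatic cyst and hub cells, the same sums were 11.6 and 11.7 in the knockdown and 5.72 and 5.40 in the *bam* mutant. The part of these shifts in marker levels in the replication result was not tested. The germline markers were *nos*, *zpg*, *aub*, *piwi*, *AGO3*, *tej*, *bgcn*, *tut*, *mei-P26*, *spn-E*, *krimp*, *qin* and *ovo*. Under TMM scaling their log2 fold changes ranged between 0.36 and 1.10, so they did not move alike. Earlier work cited by the paper found Mei-P26 protein lowered by Bgcn, Tut and possibly Bam, and Nanos lowered by Bam in females. Any effect of this on the germline scaling was not tested.

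**Figure D2:**
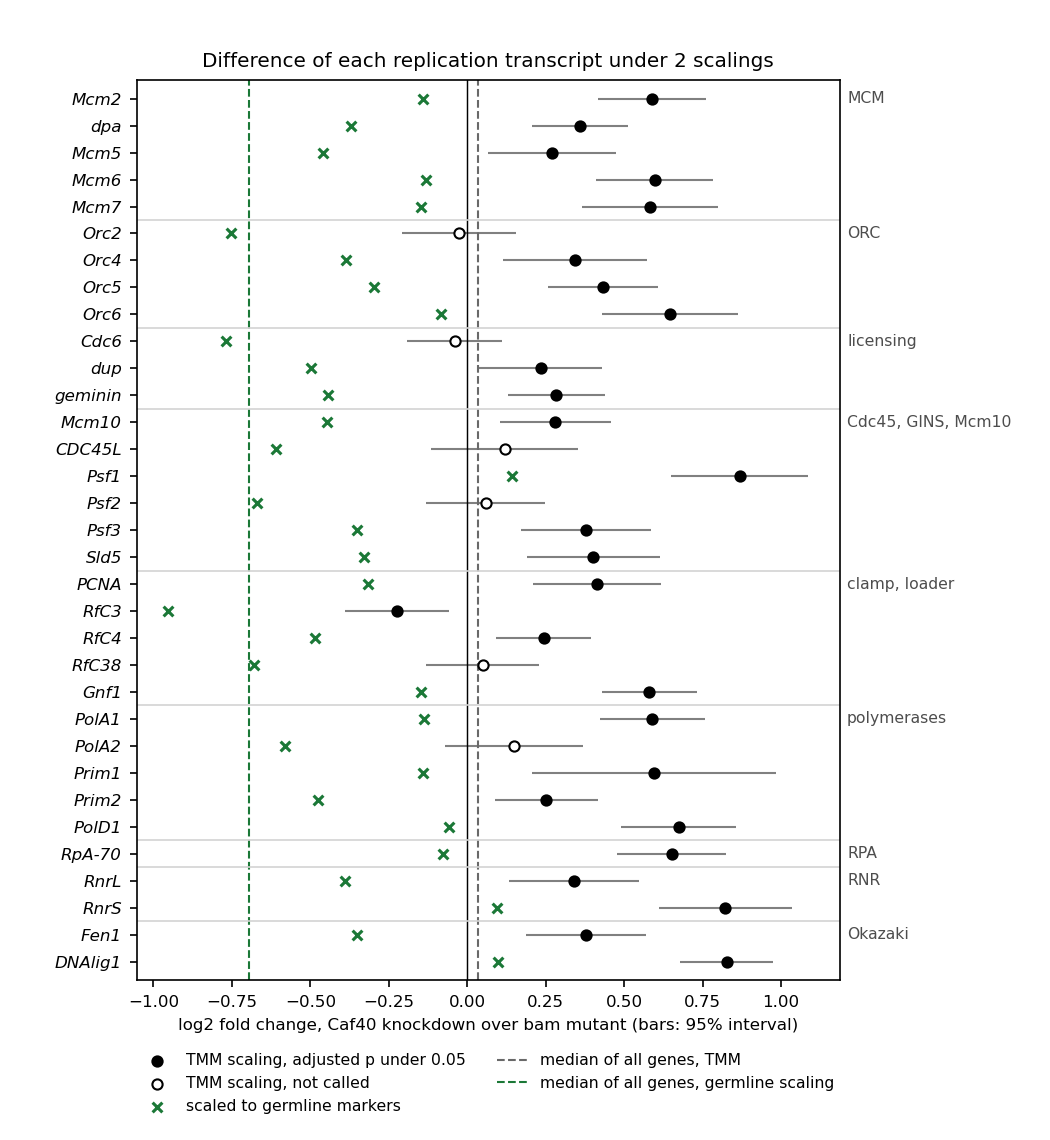
Log2 fold change of each replication transcript, Caf40 knockdown over *bam* mutant, under TMM scaling (circles, with 95% intervals; filled where the adjusted p was under 0.05) and scaled to germline markers (crosses), with dashed lines at the median of all genes under each scaling. Under TMM scaling 30 of 33 genes are above 0, and under germline scaling 3 of 33 are; all genes shift together between the scalings, so the place of the 33 among all genes is the same in both by construction.

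The MCM proteins form the ring-shaped core of the replicative helicase. Of the 6 subunit genes, 5 were measured, and all 5 were called higher under TMM scaling (log2 fold changes 0.27 to 0.60) and lower when scaled to germline markers (−0.46 to −0.13). *Mcm6* had 206 and 182 CPM in the knockdown and 128 and 128 CPM in the *bam* mutant, a log2 fold change of 0.60 ± 0.07 (SE; edgeR adjusted p = 0.0013). Both knockdown libraries lay above both *bam* mutant libraries, and the *bam* mutant pair was nearly identical. *Mcm2* followed closely, with 170 and 153 CPM in the knockdown and 109 and 106 CPM in the *bam* mutant, and *Mcm7* with 258 and 221 CPM in the knockdown and 161 and 159 CPM in the *bam* mutant. The genes for the other two subunits moved less. *dpa*, which encodes Mcm4, had 246 and 229 CPM in the knockdown and 184 and 187 CPM in the *bam* mutant, and *Mcm5* had 174 and 151 CPM in the knockdown and 137 and 132 CPM in the *bam* mutant. The call for *Mcm5* (adjusted p = 0.031) was lost when either *bam* mutant library or knockdown replicate 1 was left out. Levels per kilobase of exon allow a rough comparison between genes, as they divide by all annotated exonic bases of a gene. By this measure *Mcm7* stood highest of the 5 in the knockdown at 97.7 CPM per kb, against 65.2 in the *bam* mutant. *Mcm2* stood lowest at 55.7 CPM per kb, against 37.1 in the *bam* mutant.

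ORC marks origins and recruits the loading factors. Among its 4 measured subunits, *Orc6*, *Orc5* and *Orc4* were called higher under TMM scaling (0.65, 0.43 and 0.34), whereas scaled to germline markers they stood at −0.08, −0.30 and −0.39. *Orc6*, the smallest ORC subunit, had 28.9 and 25.6 CPM in the knockdown and 17.9 and 17.0 CPM in the *bam* mutant (log2 fold change 0.65 ± 0.09, SE; edgeR adjusted p = 0.0016). *Orc2* had 45.3 and 41.9 CPM in the knockdown and 45.6 and 43.2 CPM in the *bam* mutant, and the libraries of the 2 genotypes overlapped. Its log2 fold change was −0.03 (95% interval −0.21 to 0.15; edgeR adjusted p = 0.77) with TMM and 0.12 with upper quartile scaling, not called in either. It was called lower with germline scaling (−0.75, adjusted p = 1.3e-04) and without the filter on low counts (−0.18, adjusted p = 0.042).

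The licensing factors gave smaller values. *Cdc6*, an ATPase that helps load MCM, had 55.3 and 52.6 CPM in the knockdown and 56.3 and 54.6 CPM in the *bam* mutant. The groups overlapped, and the log2 fold change was −0.04 (95% interval −0.19 to 0.11; edgeR adjusted p = 0.58) with TMM and 0.11 with upper quartile scaling, not called in either. It was called lower with germline scaling (−0.77, adjusted p = 1.2e-04) and without the filter on low counts (−0.19, adjusted p = 0.017). *geminin*, the inhibitor of relicensing, had 140 and 135 CPM in the knockdown and 117 and 109 CPM in the *bam* mutant, a log2 fold change of 0.28 ± 0.06 (SE; edgeR adjusted p = 0.010) with TMM and −0.44 with germline scaling. *dup*, which encodes Cdt1, had 119 and 103 CPM in the knockdown and 96.5 and 92.3 CPM in the *bam* mutant, an increase near the threshold under TMM scaling (adjusted p = 0.045) and −0.50 with germline scaling. The call for *dup* was lost in 3 of the 4 fits that left out a library, with DESeq2 and with unstranded counts.

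Of the factors that complete the helicase, 4 of 6 were called higher under TMM scaling, and only *Psf1* kept a positive value when scaled to germline markers. *Psf1*, a GINS subunit, had the largest fold change of all 33 genes under TMM scaling. It had 23.0 and 23.6 CPM in the knockdown and 13.3 and 12.2 CPM in the *bam* mutant, a log2 fold change of 0.87 ± 0.09 (SE), or 1.82-fold (edgeR adjusted p = 6.0e-04). With germline scaling its log2 fold change was 0.14 and was not called. The other GINS subunits did not follow it evenly. *Sld5* had 24.1 and 21.4 CPM in the knockdown and 17.3 and 17.1 CPM in the *bam* mutant, while *Psf2* had 31.1 and 28.4 CPM in the knockdown and 29.3 and 27.8 CPM in the *bam* mutant, with overlapping groups. *Psf2* was not called with TMM (0.06, adjusted p = 0.52) but was called higher with upper quartile factors (0.20, adjusted p = 0.023) and library size alone (0.15, adjusted p = 0.047), and lower with germline scaling. Per kilobase, *Psf1*, *Psf2* and *Sld5* were at 33.6, 34.3 and 29.4 CPM per kb in the knockdown and at 18.4, 32.9 and 22.3 CPM per kb in the *bam* mutant. *Psf3*, the other GINS gene, was at 17.3 CPM per kb in the knockdown and 13.3 in the *bam* mutant. Its annotated exons cover 2380 bases, against 692 for *Psf1*, 868 for *Psf2* and 773 for *Sld5*. In CPM, *Psf3* was instead the highest of the GINS genes in both genotypes.

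*Psf3* had 43.3 and 39.0 CPM in the knockdown and 32.9 and 30.4 CPM in the *bam* mutant (log2 fold change 0.38, edgeR adjusted p = 0.011 with TMM, −0.35 with germline scaling). Its exons share 831 bases with *CG17841* on the opposite strand. Reads on that strand made up 26.02% and 26.6% of its stranded counts in the knockdown and 58.9% and 60.2% in the *bam* mutant, and with unstranded counts the log2 fold change of *Psf3* was −0.21 (adjusted p = 0.078). *CDC45L*, which encodes Cdc45, was the lowest of the 33 per kilobase, at 8.05 CPM per kb in the knockdown and 7.41 in the *bam* mutant, with a log2 fold change of 0.12 that did not pass the test with TMM (adjusted p = 0.30). It was called higher with upper quartile factors (0.27, adjusted p = 0.029) and library size alone (0.21, adjusted p = 0.049), and lower with germline scaling. *Mcm10*, an initiation factor that binds the helicase, had 101 and 90.9 CPM in the knockdown and 81.0 and 77.0 CPM in the *bam* mutant.

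**Figure D3:**
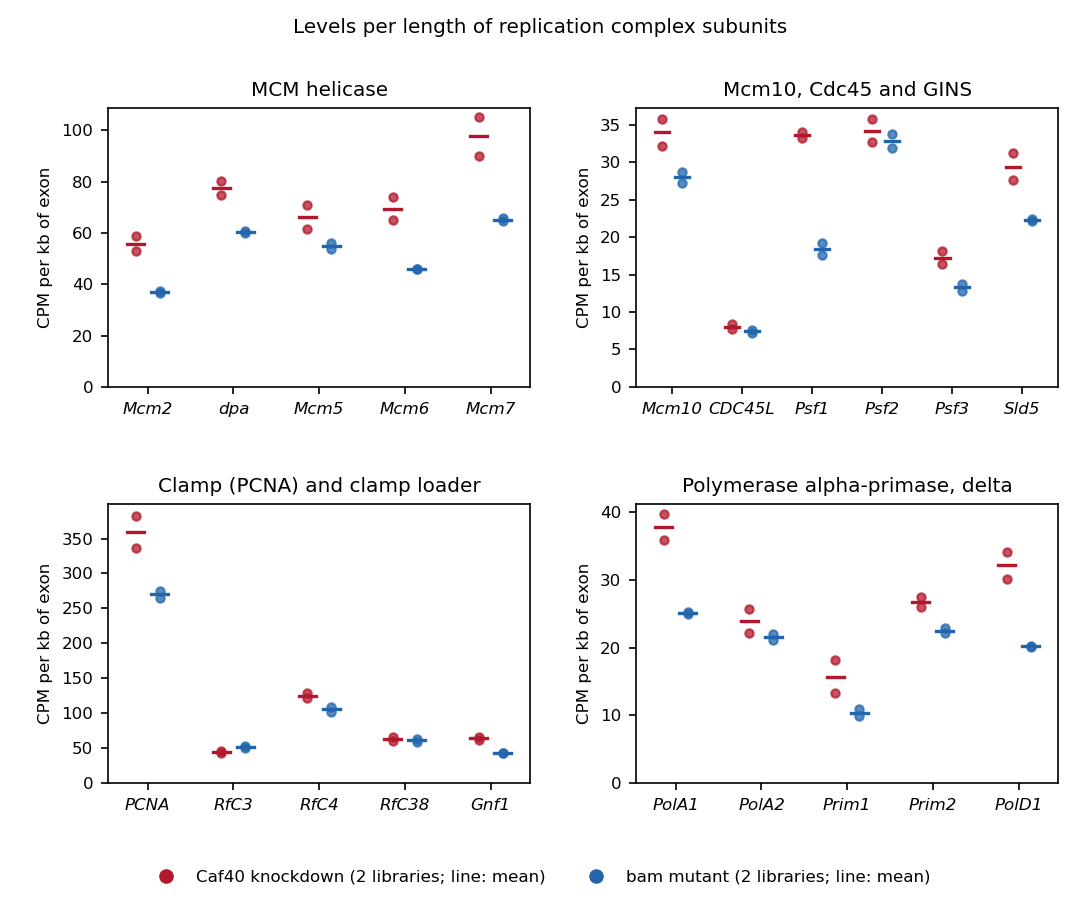
Level per kilobase of exon (TMM-scaled CPM per kb, axes starting at 0) for subunits of 4 groups of replication factors, with a point per library and a line at the mean, Caf40 knockdown left of *bam* mutant for each gene. *Psf1* is at 33.6 CPM per kb in the knockdown and 18.4 in the *bam* mutant, beside *Psf2* at 34.3 in the knockdown and 32.9 in the *bam* mutant; *RfC3* is the gene called lower in the knockdown, and under germline scaling most of the genes shown were lower in it.

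PCNA is the sliding clamp that holds polymerases on DNA, and its transcript was the most abundant of the 33 per kilobase in both genotypes. *PCNA* had 409 and 361 CPM in the knockdown and 294 and 283 CPM in the *bam* mutant, or 360 CPM per kb in the knockdown and 270 in the *bam* mutant (log2 fold change 0.41 ± 0.08, SE; edgeR adjusted p = 0.0072 with TMM, −0.32 with germline scaling). The clamp loader subunits differed among themselves. *Gnf1*, which encodes the large subunit, had 218 and 202 CPM in the knockdown and 141 and 140 CPM in the *bam* mutant, a log2 fold change of 0.58 ± 0.06 (SE; edgeR adjusted p = 6.8e-04) with TMM and −0.15 with germline scaling. *RfC3*, a small subunit, was the one gene of the 33 called lower under TMM scaling. It had 51.7 and 48.9 CPM in the knockdown and 60.5 and 57.0 CPM in the *bam* mutant, and the groups did not overlap. Its log2 fold change was −0.22 ± 0.07 (SE; edgeR adjusted p = 0.030) with TMM and −0.95 with germline scaling, but the call was lost with upper quartile scaling (−0.08, adjusted p = 0.20) and with library size alone (−0.13, adjusted p = 0.052). Of the other two loader genes, *RfC4* was called higher under TMM scaling at 0.24 and stood at −0.48 with germline scaling, and *RfC38* was not called with TMM (0.05, adjusted p = 0.57). *RfC38* was called higher with upper quartile factors (0.19, adjusted p = 0.016) and library size alone (0.14, adjusted p = 0.028), and lower with germline scaling.

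Among the 5 genes for DNA polymerase alpha, its primase and polymerase delta, 4 were called higher under TMM scaling, and all 5 had negative values with germline scaling (−0.58 to −0.06). *PolD1*, the catalytic subunit of polymerase delta, had 118 and 104 CPM in the knockdown and 69.6 and 69.2 CPM in the *bam* mutant, a log2 fold change of 0.67 ± 0.07 (SE), or 1.59-fold (edgeR adjusted p = 7.6e-04). *PolA1*, the catalytic subunit of polymerase alpha, had 184 and 166 CPM in the knockdown and 117 and 115.3 CPM in the *bam* mutant. Its partner *PolA2* had 53.0 and 45.9 CPM in the knockdown and 45.5 and 43.8 CPM in the *bam* mutant, with a log2 fold change of 0.15 that was not called with TMM (adjusted p = 0.19). *PolA2* was called higher with upper quartile factors (0.29, adjusted p = 0.0088) and library size alone (0.24, adjusted p = 0.013), and lower with germline scaling. The primase genes were *Prim1*, with 28.4 and 20.9 CPM in the knockdown and 17.1 and 15.5 CPM in the *bam* mutant, and *Prim2*, with 48.3 and 45.7 CPM in the knockdown and 40.1 and 38.8 CPM in the *bam* mutant. *Prim1* had the widest error of the 33 genes (log2 fold change 0.60 ± 0.15, SE), since its knockdown libraries differed by 1.36 times. The calls for both primase genes were lost without either *bam* mutant library, and that for *Prim2* also without knockdown replicate 1 and with DESeq2.

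RPA protects single-stranded DNA. *RpA-70*, the large subunit, had 425 and 392 CPM in the knockdown and 264 and 255 CPM in the *bam* mutant, a log2 fold change of 0.65 ± 0.07 (SE; edgeR adjusted p = 7.2e-04) with TMM and −0.08, not called, with germline scaling. It lies on chromosome arm 3R, bases 8262120 to 8264451 on the minus strand of BDGP6.54, head to head with *Mcm2* at 8264970 to 8267924 on the plus strand, with 518 bases between them. *Mcm2* counts were 0.400 and 0.391 of *RpA-70* counts in the knockdown and 0.412 and 0.416 in the *bam* mutant, so the ratio of these neighbours differed by 0.956 times between genotypes.

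Ribonucleotide reductase makes deoxynucleotides from ribonucleotides and has a large and a small subunit. *RnrS*, the small subunit, had 316 and 286 CPM in the knockdown and 179 and 161 CPM in the *bam* mutant, a log2 fold change of 0.82 ± 0.08 (SE), or 1.77-fold (edgeR adjusted p = 6.3e-04), under TMM scaling, and 0.09, not called, with germline scaling. *RnrL*, the large subunit, had 188 and 163 CPM in the knockdown and 141 and 136 CPM in the *bam* mutant, with 0.34 under TMM and −0.39 under germline scaling. In Okazaki fragment processing, *DNAlig1*, which seals nicks, had 68.8 and 66.0 CPM in the knockdown and 38.2 and 37.9 CPM in the *bam* mutant. Its log2 fold change was 0.83 ± 0.06 (SE), or 1.77-fold (edgeR adjusted p = 1.9e-04), under TMM and 0.10, not called, under germline scaling. *Fen1*, the flap endonuclease, had 74.3 and 66.3 CPM in the knockdown and 55.8 and 52.5 CPM in the *bam* mutant, at 0.38 under TMM and −0.35 under germline scaling.

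Ratios of counts between partners within a library do not depend on the scaling factor, and several of them differed between genotypes. *RnrS* counts were 1.68 and 1.76 times *RnrL* counts in the knockdown and 1.27 and 1.19 times in the *bam* mutant. *PolA1* counts were 3.46 and 3.62 times those of *PolA2* in the knockdown and 2.58 and 2.63 times in the *bam* mutant. *DNAlig1* counts were 0.925 and 0.996 of *Fen1* counts in the knockdown and 0.684 and 0.722 in the *bam* mutant. In each of these pairs the 2 genotypes were separated, and the catalytic or small subunit, or the ligase, had the larger share in the knockdown. By contrast, the ratio of *dup* to its inhibitor *geminin* was 0.847 and 0.768 in the knockdown and 0.825 and 0.850 in the *bam* mutant, and the groups overlapped. *Cdc6* counts were 0.466 and 0.508 of *dup* counts in the knockdown and 0.584 and 0.592 in the *bam* mutant. Within complexes, the subunits farthest apart were picked after their values were seen and are given as a description. *Psf1* counts were 0.740 and 0.830 of *Psf2* counts in the knockdown and 0.455 and 0.438 in the *bam* mutant, *Gnf1* counts were 4.21 and 4.14 times *RfC3* counts in the knockdown and 2.33 and 2.45 times in the *bam* mutant, and *Orc6* counts were 0.637 and 0.611 of *Orc2* counts in the knockdown and 0.392 and 0.392 in the *bam* mutant. With 2 libraries per genotype no single ratio was tested.

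**Figure D4:**
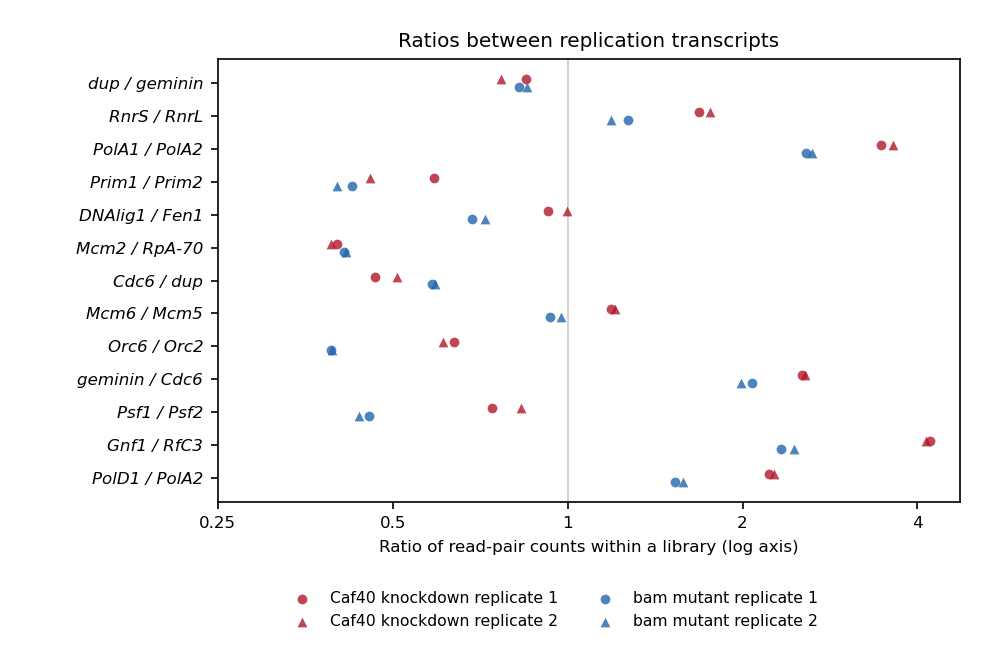
Ratio of read-pair counts of 2 replication genes within each library, on a log axis, for 13 pairs, with Caf40 knockdown points (red) above *bam* mutant points (blue). *RnrS* over *RnrL* is 1.68 and 1.76 in the knockdown and 1.27 and 1.19 in the *bam* mutant, while *dup* over *geminin* overlaps between the genotypes.

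Across the 33 genes, levels per kilobase spanned 44.7-fold in the knockdown and 36.4-fold in the *bam* mutant, and the same 5 genes were highest in both: *PCNA*, *RpA-70*, *RnrS*, *geminin* and *RfC4*. All 34 matched genes are protein coding, with 10 on chromosome arm 2R, 8 on 3R, 7 on 3L, 6 on 2L and 3 on X. Over the 33 genes, which are not independent replicates, the fold change had a Pearson correlation of 0.10 with log2 exonic length and of 0.06 with log2 level. In TMM-scaled CPM, replicates of a genotype also differed as a set. Knockdown replicate 1 was above knockdown replicate 2 for 32 of the 33 genes, by a median of 1.11 times, with *Psf1* the exception. *bam* mutant replicate 1 was above replicate 2 for 31, by a median of 1.04 times. The TMM factors of the knockdown libraries were 0.990 and 1.08. As shares of gene counts the replicates were closer, at 0.417% and 0.409% in the knockdown and 0.288% and 0.283% in the *bam* mutant. The difference between genotypes for the 33 genes under TMM scaling (median 1.30-fold) was larger than these differences between replicates. The smallest of the called increases, for *dup*, *RfC4*, *Prim2* and *Mcm5*, lay at 1.18 to 1.21-fold under TMM scaling. All 4 were negative under germline scaling.

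A separate list of 43 other replication genes was read in the same fit, and 38 of them were tested. Under TMM scaling 24 were called higher and 1 lower, with a median log2 fold change of 0.31. That is 63.2% and 2.63% of the 38, beside 30.7% and 33% of all genes. When scaled to germline markers, 3 were called higher and 28 lower. That is 7.89% and 73.7% of the 38, beside 5.83% and 68% of all genes. *PolE1*, the catalytic subunit of polymerase epsilon, had 126 and 117 CPM in the knockdown and 57.6 and 56.6 CPM in the *bam* mutant, a log2 fold change of 1.09 ± 0.06 (SE) under TMM and 0.36 (adjusted p = 9.1e-04) under germline scaling, called higher in both. It was the only one of these genes to reach a log2 fold change of 1. *Rbf*, the fly retinoblastoma protein that represses E2F targets, was the gene called lower under TMM scaling and was picked out after its value was seen. It had 148 and 140 CPM in the knockdown and 222 and 233 CPM in the *bam* mutant, a log2 fold change of −0.66 ± 0.06 (SE; edgeR adjusted p = 4.6e-04) under TMM and −1.39 under germline scaling. *E2f1*, the activating factor of replication genes, had 231 and 221 CPM in the knockdown and 217 and 226 CPM in the *bam* mutant. It was not called under TMM scaling, with overlapping groups. Under that scaling, related genes of the list did not follow *Rbf*. *Rbf2* and *Dp* were called higher, at 0.45 (edgeR adjusted p = 0.0082) and 0.36 (edgeR adjusted p = 0.0037), and *E2f2* was not called (−0.04). With germline scaling the median of all genes moved by −0.73. Values of *E2f1*, *E2f2*, *Rbf2* and *Dp* under it are not given here, so this contrast is for TMM only.

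**Figure D5:**
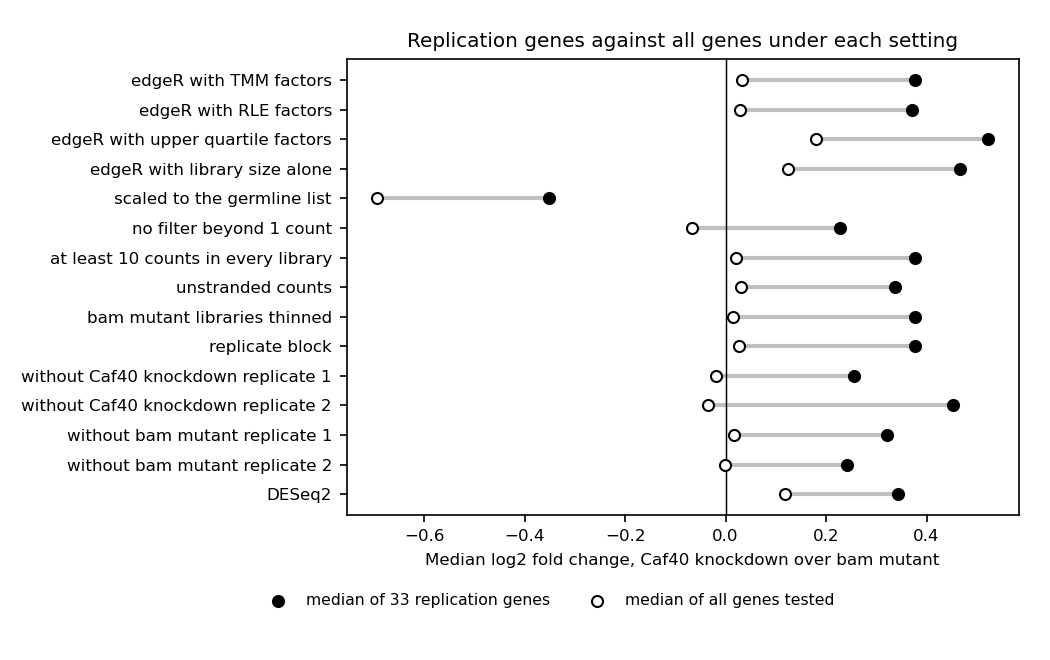
Median log2 fold change (Caf40 knockdown over *bam* mutant) of the 33 replication genes (filled) and of all genes tested (open) under each setting. The replication median is 0.38 with TMM and −0.35 when scaled to germline markers, and it lies above the median of all genes by 0.22 to 0.49 in the settings shown, where scalings alone move both medians alike.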

How the data were processed

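Per the labels and the study's methods, the authors made directional poly(A) libraries, trimmed reads with Trim Galore, aligned them to dm6 with STAR and deposited raw read-pair counts per gene, unstranded and for each strand. Tool versions were not given in the sources used here. The deposited counts of the strand read by a dUTP kit were used, as the opposite strand held 2.47% to 2.54% of stranded counts. The 4 entries that name no gene (26.9% to 30.8% of pairs) were left out. A deposited table of normalised values (4 per-sample columns, some with names that do not match the labels) and the authors' table of fold changes, standard errors, test statistics and p-values were not used.

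Genes were kept by filterByExpr, scaled by TMM and tested with edgeR 4.0.16 in R 4.3.3 (glmQLFit and glmQLFTest, two-sided, genotype only, Benjamini-Hochberg over 10854 genes, called at adjusted p under 0.05). SD, SE and intervals rest on 2 libraries per group. Each SE was the absolute log2 fold change over the square root of the F statistic of the quasi-likelihood test. SE and intervals thus also borrow spread from other genes, with a median of 3.36 prior degrees of freedom. DESeq2 1.42.0, other scalings, filters, strands, thinning and left-out libraries were alternatives. Exonic lengths and coordinates came from the Ensembl 115 annotation of BDGP6.54, of the dm6 assembly series. Members and lists were chosen with earlier results of these data known. Library values were given for the 3 largest and 3 smallest log2 fold changes and the largest absolute one in each role group, and others were added after values were seen. Scripts were tested on simulated data with less spread between libraries than these data, where the common biological coefficient of variation was 21.8%. That test does not show the error rate under the spread of these data.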

Additional observations from a re-analysis of the deposited data

Results flagged for a closer look

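For 7 of the 33 replication genes, reads on the strand opposite to the gene, which the comparisons did not use, made up a larger share of its stranded counts in the knockdown than in the *bam* mutant, with libraries and pooled Wilson 95% intervals that did not overlap. The intervals cover counting error only. Over all genes, 15.1% met this criterion and 14.3% met it in the other direction, as did 2 of the 33. These were *Orc5* (9.11% in the knockdown, 11.4% in the *bam* mutant) and *Psf3* (26.3% in the knockdown, 59.5% in the *bam* mutant). The pooled share for *dup* was 8.56% in the knockdown and 7.49% in the *bam* mutant, and *SRPK* overlaps it on that strand. *DNAlig1*, overlapped by *Upf3*, had 6.01% in the knockdown and 4.57% in the *bam* mutant. *Fen1*, overlapped by *IntS8*, had 3.41% in the knockdown and 2.13% in the *bam* mutant, and *RfC38*, overlapped by *Nup160*, had 2.84% in the knockdown and 1.27% in the *bam* mutant. The other 3 genes have no annotated exon overlapping them on that strand. *CDC45L* had 4.44% in the knockdown and 2.69% in the *bam* mutant, *Mcm2* had 1.26% in the knockdown and 0.533% in the *bam* mutant, and *RfC3* had 0.801% in the knockdown and 0.360% in the *bam* mutant. In 21 of the 33 genes the share was under 1% in every library.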

How the results depend on the processing

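Scaling decided the direction. With germline scaling 633 genes of all tested were called higher and 7380 lower, and higher calls made up 7.90% of calls, against 48.2% with TMM and 57.4% with upper quartile factors. The replication genes gave 0 higher and 26 lower (median −0.35), and the other replication genes 3 and 28. Germline scaling reversed the sign of *Mcm2* (−0.14), *dpa* (−0.37), *Mcm5* (−0.46), *Mcm6* (−0.13), *Mcm7* (−0.15), *Orc4* (−0.39), *Orc5* (−0.30), *Orc6* (−0.083), *dup* (−0.50), *geminin* (−0.44), *Mcm10* (−0.45), *CDC45L* (−0.61), *Psf2* (−0.67), *Psf3* (−0.35), *Sld5* (−0.33), *PCNA* (−0.32), *RfC4* (−0.48), *RfC38* (−0.68), *Gnf1* (−0.15), *PolA1* (−0.14), *PolA2* (−0.58), *Prim1* (−0.14), *Prim2* (−0.48), *PolD1* (−0.057), *RpA-70* (−0.076), *RnrL* (−0.39) and *Fen1* (−0.35). With upper quartile factors the median was 0.52 and with library size alone 0.47, with 0 called lower by edgeR in each (0 and 1 at an unadjusted p under 0.05, and 1 by DESeq2 with its own size factors). *Orc2* was then 0.12 and 0.064, and *Cdc6* 0.11 and 0.051. Higher calls of replication genes numbered 30 in each, with *CDC45L*, *PolA2*, *Psf2* and *RfC38* gained, beside 39.4% and 36.6% of all genes. Without a filter beyond 1 count, 19 replication genes were called higher (17.2% of all genes) and 3 lower (27.8% of all genes), 4 other replication genes were called lower, the median was 0.23, and *CDC45L* (−0.030), *Psf2* (−0.092), *RfC38* (−0.10) and *PolA2* (−0.0027) turned negative. Unstranded counts turned *Psf3* to −0.21. Apart from the scalings, the cause of these shifts was not tested.

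Leaving out 1 library at a time gave 14 to 27 replication genes higher, 1 lower in each, and medians of 0.24 to 0.45. All genes called higher numbered 1915 to 4042 and lower 3068 to 4233, and other replication genes called higher 16 to 29 and lower 1 to 2. *Orc2* ranged between −0.16 and 0.031, *CDC45L* between −0.020 and 0.19, *Psf2* between −0.073 and 0.12, *RfC38* between −0.090 and 0.12, and *PolA2* between −0.0049 and 0.25. The lone library of a genotype was then assumed to vary like the other group. The ends of these ranges do not all come from the same fit. Replication genes called higher were most numerous without knockdown replicate 2, and all genes called higher without knockdown replicate 1. The counts are therefore not set against each other. Within each of these fits the median of the replication genes lay above that of all genes, by 0.24 to 0.49.

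The labels number replicates 1 and 2 in both genotypes, but nothing says that a number marks a shared batch, and 2 pairs are too few to show pairing (correlation of replicate 1 deviations 0.26). With the replicate number as a block, 26 replication genes were called higher and 1 lower, with a median of 0.38, and no call of theirs changed. Over all genes in that fit 30.0% were called higher and 32.6% lower, with a median of 0.027.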
